A study of Mus musculus with 6 samples.

Results

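Hepatocyte plasma protein transcripts are 35 mRNAs of proteins that the liver secretes into blood, and their levels were followed in 6 RNA libraries of liver F4/80-positive cells. The 35 genes were chosen by name as products of hepatocytes, with albumin (*Alb*) as the marker, and were matched by Ensembl identifier to symbols of the GENCODE M21 annotation among the 49315 genes counted. All 35 were found and all 35 passed the filter on low counts, which left 16134 genes in the tests. The question was whether these transcripts rose and fell together from mouse to mouse, and whether they differed between genotypes.

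The libraries came from 3 WT and 3 Lpcat3 KOMac mice, 1 library per mouse, after 16 weeks on a high-fat diet with 60% fat. Lpcat3 KOMac mice were Lpcat3 fl/fl/LysM Cre/+ and the WT mice were their Lpcat3 fl/fl/LysM +/+ littermates, so that all 6 mice carried floxed *Lpcat3* alleles, on a C57BL/6N background. Cre driven by LysM acts in myeloid cells and not in hepatocytes, and the deletion in this model is partial. Livers were perfused with collagenase, a slow spin gave a pellet with hepatocytes, and F4/80-positive cells were taken from the supernatant with magnetic beads, a surface protein of Kupffer cells, as the macrophages that reside in liver are called. *Lpcat3* itself had 85.0, 66.2 and 61.2 CPM (counts per 1000000, on TMM-scaled library sizes) in WT mice 1 to 3, against 19.5, 33.3 and 19.4 CPM in Lpcat3 KOMac mice 1 to 3, with no overlap. Total counts were between 44954224 and 71392812 per library. The Kupffer cell markers *Clec4f*, *Vsig4*, *Timd4*, *Cd5l*, *Marco*, *Adgre1*, *Folr2* and *Cd163* summed to between 19575 and 37078 CPM, and all 8 were highest in WT mouse 2 and lowest in Lpcat3 KOMac mouse 2.

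Hepatocytes make most proteins of blood plasma. These include albumin and other carriers, the apolipoproteins of circulating lipoprotein particles, inhibitors that hold proteases in check, and the factors that form and dissolve fibrin clots. Such proteins are made on rough endoplasmic reticulum and secreted without being stored, and their mRNAs are among the most abundant in liver. Macrophages do not make albumin. In a bulk library, more cells of a type and more RNA per cell cannot be told apart.

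Promoters of these genes are classical targets of liver-enriched transcription factors such as HNF1 and the forkhead factors, and 3 stretches are shown because they belong to the marker gene and to a pair of paralogs that diverged in the libraries. RefSeq promoter windows of the GRCm38.p6 build covered 27 of the 35 members with 31 windows, and no window was at hand for *Trf*, *Apoc3*, *Orm1*, *Hp*, *Kng1*, *Ttr*, *Serpina3k* and *Plg*. Each line gives the 100 bases before the RefSeq start, 5′ to 3′ on the strand of the gene, and capitals mark the HNF1 core letters GTTAAT.
Alb (chr5:90460770-90460869, plus strand): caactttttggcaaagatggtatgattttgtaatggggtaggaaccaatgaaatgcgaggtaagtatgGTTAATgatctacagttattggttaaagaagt
Serpina1b (chr12:103738190-103738289, minus strand): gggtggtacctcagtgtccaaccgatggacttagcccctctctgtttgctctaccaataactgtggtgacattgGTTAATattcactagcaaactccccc
Serpina1e (chr12:103956898-103956997, minus strand): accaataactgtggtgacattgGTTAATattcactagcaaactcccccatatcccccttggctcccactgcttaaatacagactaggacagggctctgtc
In *Alb* these letters lay 32 to 27 bases before the start, in *Serpina1b* 26 to 21 bases and in *Serpina1e* 78 to 73 bases. The last 48 bases before the *Serpina1b* start are also found, letter for letter, 100 to 53 bases before the *Serpina1e* start. On either strand of the 250 bases before a start, GTTAAT was found for 12 of the 27 members and in 6.43% of all 32851 RefSeq windows. The 12 were *Alb*, *Gc*, *Cp*, all 5 *Serpina1* paralogs, *Itih1*, *Fga*, *Fgb* and *Vtn*. The forkhead core TGTTTGC was found for 11 members and in 4.3% of windows, and its other form TGTTTAC for 4 members and in 3.17%. TATAAA was found for 6 members and in 12.4% of windows, and the STAT letters TTCNNNGAA for 3 members and in 7.02%. A member with more than 1 window, as 4 had, was counted once if any of them held the letters, and a match describes letters, not binding.

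All 35 members were highest in the library of WT mouse 1. Over all genes tested this library was the highest for 28.2%. The members together took 3.98% of all counts in WT mouse 1 (95% Wilson interval 3.97 to 3.98%), 0.437% in WT mouse 2 and 0.375% in WT mouse 3. They took 1.11%, 2.57% and 0.980% in Lpcat3 KOMac mice 1 to 3. These intervals cover counting error only. Their summed level was 43707, 4476 and 3691 CPM in the WT mice and 10636, 25137 and 9510 CPM in the Lpcat3 KOMac mice, an 11.8-fold range from the lowest library to the highest. The Kupffer cell markers went the other way in Lpcat3 KOMac mouse 2 and WT mouse 2, but not in WT mouse 1. Their sum was 26549 CPM in WT mouse 1 and 26588 CPM in WT mouse 3, and it differed 1.89-fold over the libraries. *Marco*, a scavenger receptor, was the widest of the 8, at 148 CPM in Lpcat3 KOMac mouse 2 and 3168 CPM in WT mouse 2. The narrowest was *Cd5l*, with 1.42-fold. The part of these cells in the members' levels was not tested. The median member differed 14.1-fold between its highest and lowest library, with a range of 3.38-fold for *Trf* to 27.1-fold for *Serpina3k*, where the median of all genes tested was 1.63-fold.

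The order of the libraries was largely shared. WT mouse 1 and Lpcat3 KOMac mouse 2, the top pair of *Alb*, were also that of 33 of the 34 other members and of 21.8% of all genes tested. The full order of *Alb*, in which near ties decide between Lpcat3 KOMac mice 1 and 3 and between WT mice 2 and 3, was shared by 0 of the 34 others and by 1.02% of all genes tested. In 28 members the full order, from high to low, was WT mouse 1, Lpcat3 KOMac mice 2, 1 and 3, WT mouse 2 and WT mouse 3. *Apoa1*, *Itih2*, *Itih4* and *Kng1* had Lpcat3 KOMac mouse 3 above mouse 1 and otherwise this order. The one member with another top pair was *Serpina1e*, for which the order ran WT mice 1 and 2, Lpcat3 KOMac mice 1 and 3, WT mouse 3 and Lpcat3 KOMac mouse 2.

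**Figure D1:**
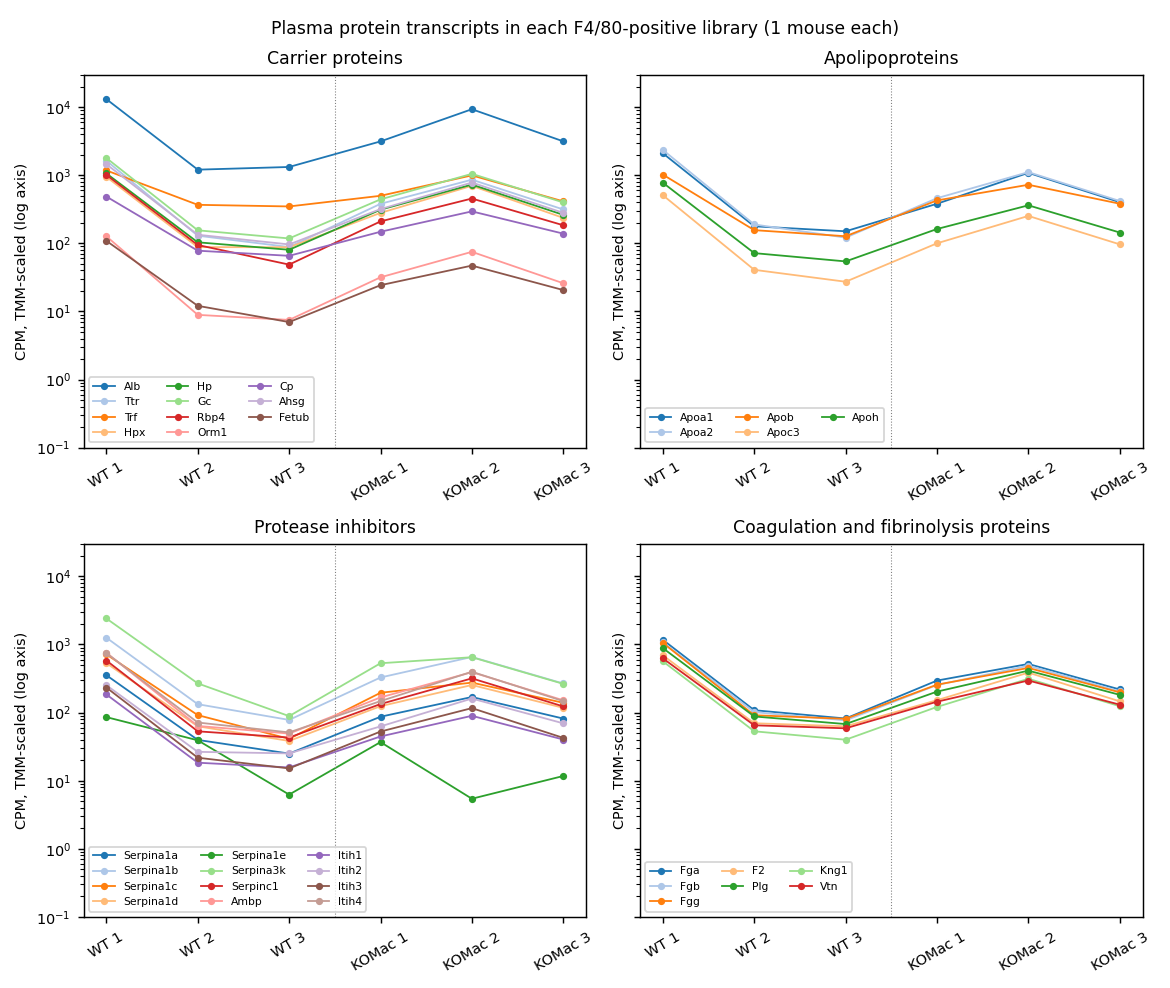
TMM-scaled CPM (log axis) of the 35 transcripts in each of the 6 libraries, in 4 panels by the role of the protein, with each line joining the values of 1 gene and a dotted line between genotypes. The lines run nearly parallel, with WT mouse 1 highest for all 35 and Lpcat3 KOMac mouse 2 second for 34; *Serpina1e* falls to 5.44 CPM in Lpcat3 KOMac mouse 2.

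Carrier proteins made up 11 of the members. *Alb* (ENSMUSG00000029368, chromosome 5, 90460897 to 90476602 of GRCm38, plus strand) codes for the main carrier and osmotic protein of plasma. Its level in WT mice 1 to 3 was 13054, 1205 and 1319 CPM, and in Lpcat3 KOMac mice 1 to 3 it was 3131, 9289 and 3138 CPM. Values are given in this order of mice throughout. WT mouse 1 and Lpcat3 KOMac mouse 2 stood apart, WT mice 2 and 3 were nearly level, and so were Lpcat3 KOMac mice 1 and 3. By level, *Alb* was the gene of rank 2 in WT mouse 1 and of rank 82, 63, 18, 3 and 19 in the other libraries in the order given. It had the highest mean level per kilobase of exon of all members, at 2216 CPM per kb over the 6 libraries.

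*Fetub* codes for fetuin B, a protease inhibitor of the fetuin family, and was listed here with the carriers. Per kilobase it was the lowest of that list, at a mean of 19.1 CPM per kb. It was at 109, 12.1 and 6.98 CPM in the WT mice and 24.3, 47.1 and 20.6 CPM in the Lpcat3 KOMac mice. The top pair of libraries was thus that of *Alb*, at a far lower level. To compare members without any scaling between libraries, the level of each was divided by that of *Alb* in the same library, and the span of a member is the highest of its 6 ratios over the lowest. A gene held at 1 level in every library would have the span of *Alb* itself, 10.8, and the median over all genes tested was 11.8.

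*Hpx*, hemopexin, which binds free haem, kept closest to *Alb* among the carriers, with a span of 1.35. It was at 944, 87.9 and 87.5 CPM in the WT mice and 279, 698 and 236 CPM in the Lpcat3 KOMac mice. *Trf*, transferrin, the iron carrier (ENSMUSG00000032554, chromosome 9, 103204001 to 103230444, minus strand), had the widest span of the carriers, 3.39. It was at 1174, 367 and 347 CPM in the WT mice and 498, 993 and 413 CPM in the Lpcat3 KOMac mice. Its level was 8.99% of that of *Alb* in WT mouse 1 and 10.7% in Lpcat3 KOMac mouse 2, but 30.5% and 26.3% in WT mice 2 and 3. The ratio was thus highest where *Alb* was lowest. The other carriers were *Ttr* and *Rbp4*, which carry thyroxine and retinol, *Hp* for haemoglobin, *Gc* for vitamin D, *Cp* for copper, *Orm1* and *Ahsg*, with spans between 1.52 (*Ahsg*) and 2.12 (*Rbp4*). *Cp* shares 13201 bases with *Hps3* on the opposite strand, which had at most 5481 counts against at most 31497 for *Cp*, and whether reads were counted by strand is not given in the sources used here.

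Apolipoproteins were 5 of the members. *Apoa2*, a protein of high-density lipoprotein, had the highest mean level per kilobase, 1439 CPM per kb, and the widest span among them, 1.95. It was at 2342, 189 and 121 CPM in the WT mice and 459, 1108 and 418 CPM in the Lpcat3 KOMac mice. *Apoa1*, the main protein of the same particles, had the narrowest span, 1.41, and was at 2093, 178 and 150 CPM in the WT mice and 381, 1082 and 401 CPM in the Lpcat3 KOMac mice. Both had WT mouse 1 and Lpcat3 KOMac mouse 2 above the other 4 libraries. *Apob*, the structural protein of very-low-density lipoprotein, was the lowest per kilobase, 33.9 CPM per kb. It was at 1018, 156 and 127 CPM in the WT mice and 426, 723 and 381 CPM in the Lpcat3 KOMac mice. *Apoc3*, an inhibitor of triglyceride clearance, and *Apoh*, which binds phospholipid, had spans of 1.88 and 1.53.

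Coagulation and fibrinolysis proteins were 7 of the members, and all 7 had spans between 1.39 and 1.70. *Fgg*, the gamma chain of fibrinogen, was the highest per kilobase, 169.9 CPM per kb, with 1053, 91.4 and 81.0 CPM in the WT mice and 257, 453 and 198 CPM in the Lpcat3 KOMac mice. *F2*, prothrombin, had the lowest level per kilobase and the narrowest span, with 692, 69.8 and 62.9 CPM in the WT mice and 152, 386 and 146 CPM in the Lpcat3 KOMac mice. *Vtn*, vitronectin, had the widest span, with 625, 65.1 and 58.8 CPM in the WT mice and 144, 296 and 131 CPM in the Lpcat3 KOMac mice. WT mouse 1 was 9.60-fold (*Vtn*) to 11.5-fold (*Fgg*) above WT mouse 2 in this role. *Fga* and *Fgb*, the other fibrinogen chains, *Plg*, plasminogen, and *Kng1*, kininogen, lay within these limits.

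Protease inhibitors were 12 of the members and held both the narrowest and the widest span. *Itih2*, a heavy chain of inter-alpha-trypsin inhibitor, had a span of 1.28, the narrowest of the 34 members other than *Alb*. It was at 252, 26.5 and 25.2 CPM in the WT mice and 62.7, 161 and 69.6 CPM in the Lpcat3 KOMac mice. *Serpinc1*, antithrombin, had a span of 1.37, and *Ambp*, *Itih1*, *Itih3* and *Itih4* had spans of 1.53 to 1.58. *Serpina3k* (ENSMUSG00000058207, chromosome 12, 104338486 to 104346144, plus strand), a serine protease inhibitor of the antichymotrypsin group, was the highest inhibitor per kilobase, 340.9 CPM per kb, with a span of 3.31. It was at 2406, 268 and 88.7 CPM in the WT mice and 530, 650 and 264 CPM in the Lpcat3 KOMac mice. Its ratio to *Alb* was 18.4%, 22.3% and 6.73% in the WT mice and 16.9%, 6.99% and 8.42% in the Lpcat3 KOMac mice, and so was low in WT mouse 3 and in Lpcat3 KOMac mice 2 and 3. It lies within the annotated bounds of *Serpina3m* on the same strand, which had at most 6630 counts against 156325 for *Serpina3k*.

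The 5 *Serpina1* genes are mouse copies of the gene for alpha-1-antitrypsin, the inhibitor of neutrophil elastase, and stand side by side on the minus strand of chromosome 12. Their coding sequences, 1242 bases each, were 96.3 to 98.5% identical, with 19 to 46 differing bases per pair and 86 positions that varied among the 5. The region that codes for the reactive centre loop, the bait for the protease, is shown because it sets the copies apart, with 18 of 60 bases varying. The lines give coding bases 1102 to 1161, in exon 5 of 5, 5′ to 3′ on the strand of the genes (GRCm38, GENCODE M21), and capitals mark positions that are not the same in all 5.
Serpina1a (chr12:103853756-103853815, minus strand): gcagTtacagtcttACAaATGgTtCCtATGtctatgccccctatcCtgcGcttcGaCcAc
Serpina1b (chr12:103728323-103728382, minus strand): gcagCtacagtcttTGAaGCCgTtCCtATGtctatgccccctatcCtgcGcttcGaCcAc
Serpina1c (chr12:103895093-103895152, minus strand): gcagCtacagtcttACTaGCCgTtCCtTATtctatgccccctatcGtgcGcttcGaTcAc
Serpina1d (chr12:103763761-103763820, minus strand): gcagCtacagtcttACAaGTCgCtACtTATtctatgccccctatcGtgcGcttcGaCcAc
Serpina1e (chr12:103947099-103947158, minus strand): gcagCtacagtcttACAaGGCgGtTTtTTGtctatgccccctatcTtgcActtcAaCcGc
Of the 1143 stretches of 100 bases in each coding sequence, the share found in none of the other 4 was 80.9% for *Serpina1e*, 72.1% for *Serpina1b*, 70.2% for *Serpina1d*, 38.8% for *Serpina1a* and 38.3% for *Serpina1c*. How reads that match several of these genes were counted is not given in the sources used here, so the split of reads among the 5 is uncertain. In the gene positions given with the counts, *Serpina1b* also spans all 9999 bases of *Serpina1d*.

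*Serpina1e* (ENSMUSG00000072849, 103946931 to 103958975) was the member that left the common order. It was at 85.8, 39.2 and 6.25 CPM in the WT mice and 36.9, 5.44 and 11.7 CPM in the Lpcat3 KOMac mice. Lpcat3 KOMac mouse 2, second of 6 for *Alb*, was the lowest library for *Serpina1e*, and WT mouse 2, lowest for *Alb*, was second. Its ratio to *Alb* was 0.657%, 3.26% and 0.474% in the WT mice and 1.18%, 0.0586% and 0.374% in the Lpcat3 KOMac mice, a span of 55.6. The paralogs deviated far less. *Serpina1b*, the highest of the 5 per kilobase, was at 1256, 133 and 78.1 CPM in the WT mice and 328, 656 and 267 CPM in the Lpcat3 KOMac mice, with a span of 1.86. *Serpina1c* was at 714, 91.8 and 41.2 CPM in the WT mice and 195, 275 and 139 CPM in the Lpcat3 KOMac mice, with a span of 2.57. *Serpina1a* was at 354, 39.7 and 25.0 CPM in the WT mice and 86.9, 169 and 81.7 CPM in the Lpcat3 KOMac mice. *Serpina1d* was at 532, 62.9 and 38.4 CPM in the WT mice and 124, 254 and 117 CPM in the Lpcat3 KOMac mice. Between WT mouse 2 and Lpcat3 KOMac mouse 2 the ratio to *Alb* was 55.6-fold higher in the former for *Serpina1e*, against 2.57-fold for *Serpina1c*, 1.91-fold for *Serpina1d*, 1.81-fold for *Serpina1a* and 1.56-fold for *Serpina1b*. These differences between single libraries have no replicate and were not tested.

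Across the 34 members other than *Alb*, the median span was 1.69, and 28 of 34 had a span of 2 or less. Over all genes tested 2.63% had a span of 2 or less. The 6 members above 2 were *Serpina1e*, *Trf*, *Serpina3k*, *Serpina1c*, *Rbp4* and *Cp*. The small departures of the ratio came with *Alb* as the shared denominator. The ratio to *Alb* was highest in WT mouse 2 for 20 of 34 members. It was lowest in WT mouse 3 for 17 and in Lpcat3 KOMac mouse 2 for 16. Each member was also set against the median log2 level of all members in each library. Its differences were then centred on its own mean. On this log2 scale 30 of 35 stayed within 0.5 in all 6 libraries. *Serpina1e* reached 2.16 in WT mouse 2 and -2.87 in Lpcat3 KOMac mouse 2. *Trf* ran from -0.94 in WT mouse 1 to 0.92 in WT mouse 3, and *Serpina3k* from -0.62 in WT mouse 3 to 0.52 in WT mouse 1. *Apob* and *Orm1* went just past the limit, with -0.53 in WT mouse 1 and -0.54 in WT mouse 2. *Alb* itself deviated by -0.42 in WT mouse 2, 0.20 in WT mouse 3 and 0.35 in Lpcat3 KOMac mouse 2. This raises ratios to *Alb* in WT mouse 2 and lowers them in WT mouse 3 and Lpcat3 KOMac mouse 2.

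**Figure D2:**
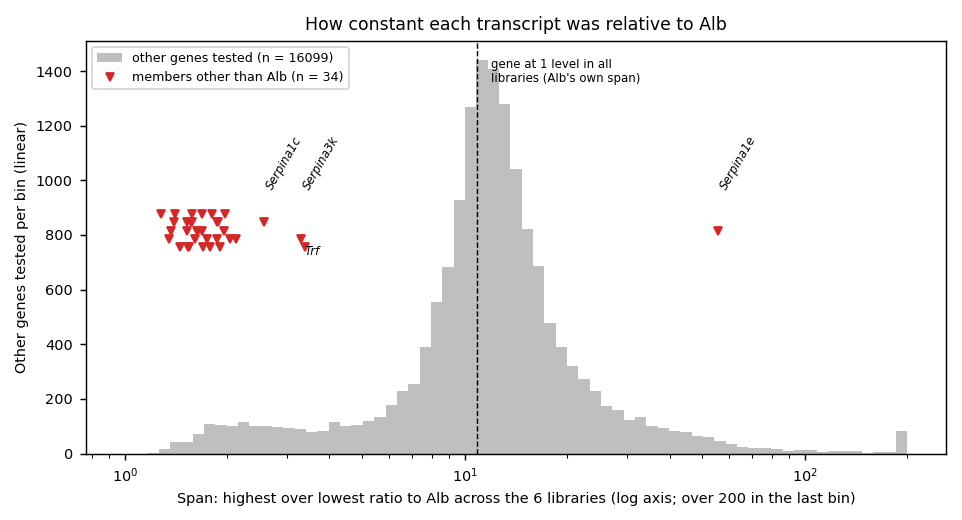
Span of the ratio to *Alb* over the 6 libraries (log axis) for the other genes tested (grey histogram, number of genes per bin) and for the 34 members other than *Alb* (red triangles, height without meaning). Members sit at a median of 1.69 and the bulk of genes near 10.8, the span of a gene at 1 level (dashed line), while *Serpina1e* lies at 55.6 on the far side of it.

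**Figure D3:**
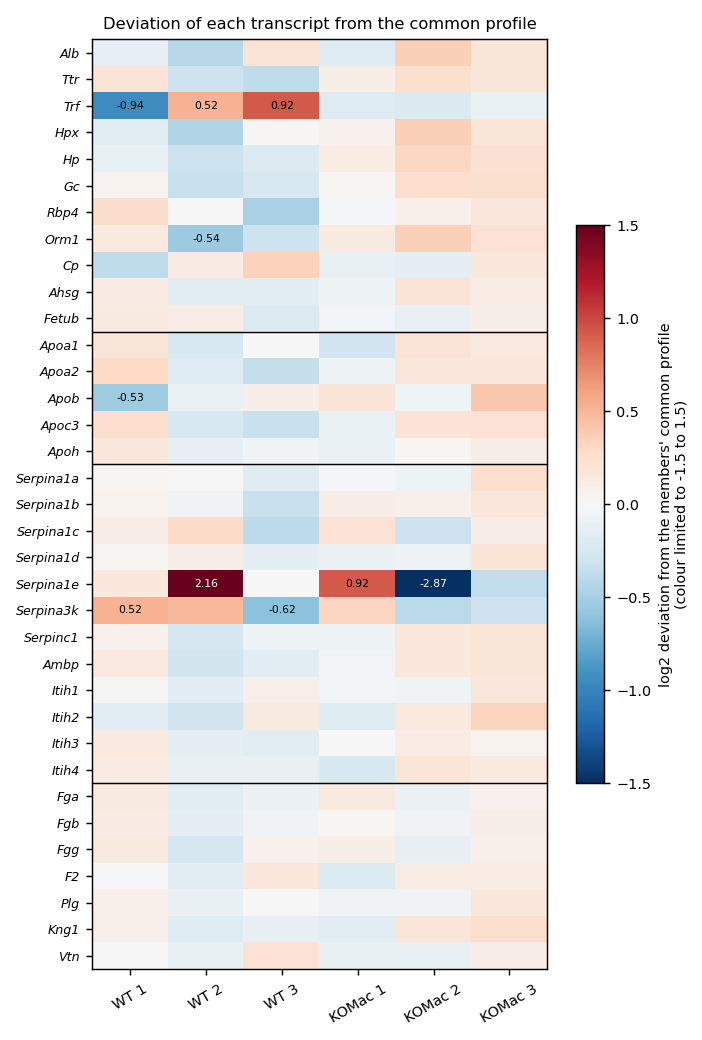
Deviation of each transcript from the median log2 level of the 35 members in each library, centred on its own mean. Libraries are columns and genes are rows, in blocks of carriers, apolipoproteins, protease inhibitors and coagulation proteins. Colour is on the log2 scale, and values are printed beyond 0.5. Values are printed for *Trf*, *Orm1*, *Apob*, *Serpina1e* and *Serpina3k*, and the strongest are 2.16 and -2.87 for *Serpina1e*.

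Members of every length class were higher in WT mouse 1 than in WT mouse 2. The median ratio of these mice was 11.8-fold among 11 members with under 1.5 kb of exon, 9.83-fold among 12 with 1.5 to 3 kb and 10.2-fold among 12 with over 3 kb. The medians of all genes tested in the same classes were 1.01, 1.03 and 0.955. The mitochondrial genome took 2.02 to 2.58% of counts in the 6 libraries, and its share was 2.03% in WT mouse 1 and 2.22% in Lpcat3 KOMac mouse 2.

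No member was called between genotypes. In edgeR's quasi-likelihood test 0 of 35 members had an adjusted p-value under 0.05, and so did 0 of the 16134 genes (0%). At an unadjusted p-value under 0.05 there were 0 members, against 426 genes or 2.64% of all tested. DESeq2 called 12 genes (0.0764% of the 15700 to which it gave a p-value) and none of the 8 members with one. It gave no p-value to the other members, *Alb* included, and so says nothing on them. The log2 fold change of Lpcat3 KOMac against WT was below 0 for 31 members and above 0 for 4, between -1.28 and 0.23 with a median of -0.32, where the median of all genes was -0.04. Its standard error was 0.61 to 1.20, and the adjusted p-value of every member was 0.99991 (edgeR, Benjamini-Hochberg). The direction depended on the test: with limma-voom the median was 0.57.

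For *Alb* the means were 5192 ± 6808 CPM in WT and 5186 ± 3553 CPM in Lpcat3 KOMac cells (SD, n = 3 each). Its log2 fold change was -0.0019 (standard error 1.09). An exact permutation test gave a two-sided p of 0.6, where 0.1 is the smallest value that 3 mice against 3 allow. That test took the difference of mean log2 CPM, which is not the edgeR fold change. The largest change was that of *Serpina1e*, from 43.8 ± 40.0 to 18.0 ± 16.6 CPM, and its log2 fold change was -1.28, with a standard error of 1.09. *Serpina3k* was at -0.94 (1.20), *Fetub* and *Serpina1c* at -0.47 each and *Fgg* at -0.43, and these 5 had the smallest unadjusted p-values. *Trf* had means of 629 ± 472 CPM in WT cells and 635 ± 314 CPM in Lpcat3 KOMac cells. All of these differences were smaller than, or close to, their standard error.

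The direction turned on WT mouse 1. It was the highest library for all 35 members, as it was for 28.2% of all genes tested. For 33 members every Lpcat3 KOMac mouse lay above WT mice 2 and 3. The share of all genes with this second order was not computed. Members that rise and fall together are also not separate observations. Without WT mouse 1, 34 of 35 members had a log2 fold change above 0, with a median of 1.91, and 32 had an unadjusted p-value under 0.05, as did 2028 of the 16487 genes then tested. The lowest adjusted p-value of a member was then 0.294 (edgeR). Without both WT mouse 1 and Lpcat3 KOMac mouse 2 all 35 were above 0, with a median of 1.37 and a lowest adjusted p-value of 0.0591 (edgeR), and 33 had an unadjusted p-value under 0.05, against 1767 of 16126 genes. Without WT mouse 2 or WT mouse 3, or without Lpcat3 KOMac mouse 2, all 35 were below 0.

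**Figure D4:**
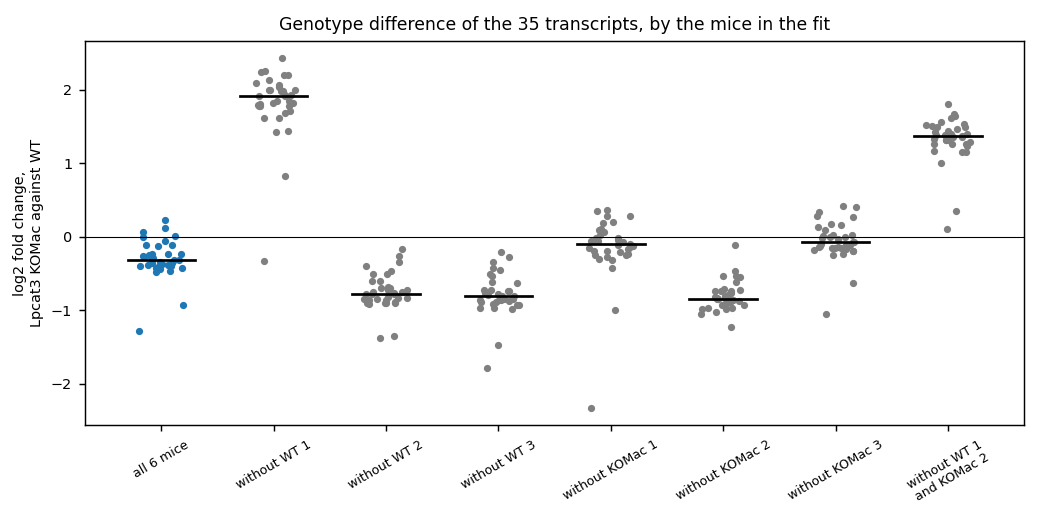
Log2 fold change of Lpcat3 KOMac against WT for the 35 transcripts (1 point each, with a bar at the median) with all 6 mice and with the named mice left out. The median is -0.32 with all mice, 1.91 without WT mouse 1 and 1.37 without WT mouse 1 and Lpcat3 KOMac mouse 2.

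Other genes of the liver secretory and metabolic programme were read from lists by function. None of them was called between genotypes. All 13 other coagulation factors and their inhibitors were highest in WT mouse 1, and 9 had a span of 2 or less. They summed to 1707, 174 and 136 CPM in the WT mice and 440, 857 and 374 CPM in the Lpcat3 KOMac mice. *Hrg*, histidine-rich glycoprotein, *F5*, factor V, and *Serpinf2*, the inhibitor of plasmin, had spans of 1.97, 1.73 and 1.88, and *F11*, factor XI, had the widest span, 3.00. Of 14 hepatocyte enzymes all 14 were highest in WT mouse 1 and 8 had a span of 2 or less. *Bhmt*, a methyltransferase of homocysteine, and *Pck1*, which controls gluconeogenesis, had 2.33 and 2.42, and the widest was *Hal*, histidine ammonia lyase, with 3.37.

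All 11 acute phase proteins, which the liver secretes in inflammation, were highest in WT mouse 1, but 2 had a span of 2 or less. *Serpina3n* had a span of 1.83 and *Crp*, C-reactive protein, 2.06, while *Saa2*, a serum amyloid A, had 5.97, the widest. *Saa2* was at 17.5, 0.559 and 1.16 CPM in the WT mice and 8.68, 6.81 and 4.33 CPM in the Lpcat3 KOMac mice. All 10 hepatocyte transcription factors were highest in WT mouse 1 as well, and none had a span of 2 or less. *Hnf4a*, a nuclear receptor that drives plasma protein genes, was at 249, 19.3 and 12.4 CPM in the WT mice and 56.1, 142 and 40.3 CPM in the Lpcat3 KOMac mice, with a span of 2.02. *Onecut1* had the widest span, 15.0, with 19.5 CPM in WT mouse 1 and between 0.131 and 3.59 CPM in the other libraries. *Cebpa*, a factor that myeloid cells also use, was between 273 and 511 CPM and so was far more even.

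Other liver apolipoproteins and complement were mixed. Of 10 apolipoproteins and partners 8 were highest in WT mouse 1 and 5 had a span of 2 or less. *Apoe*, which macrophages also make, was at 31964, 21015 and 27338 CPM in the WT mice and 19893, 27773 and 20590 CPM in the Lpcat3 KOMac mice, and *Apoc1* had the widest span, 11.8. All but *Apoc1* had the top pair of libraries of *Alb*, 9 of 10, and *Apoe* differed 1.61-fold between its highest and lowest library. Of 11 complement genes 9 were highest in WT mouse 1 and 2 had a span of 2 or less. *C3*, the central component, had a span of 2.46, but *C6* and *C4b* had 21.4 and 23.1. *C4b* was at 1281, 1864 and 929 CPM in the WT mice and 1168, 622 and 2091 CPM in the Lpcat3 KOMac mice, and its lowest library was the second highest of *Alb*.

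**Figure D5:**
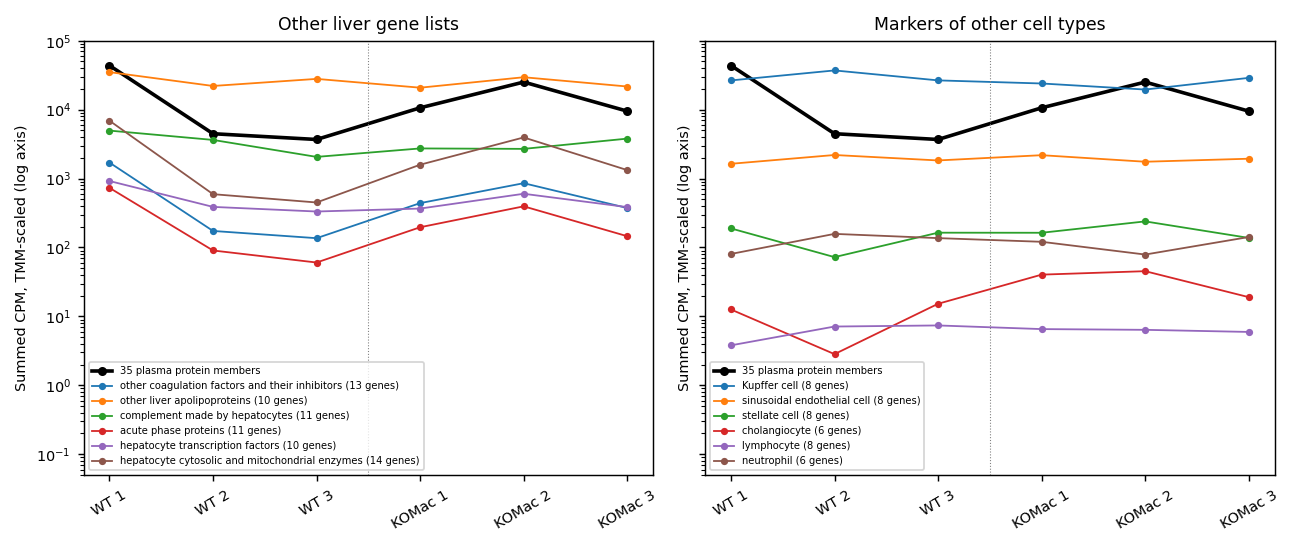
Summed TMM-scaled CPM (log axis) of each gene list in the 6 libraries, with the 35 members as the thick black line in both panels, other liver lists on the left and markers of other cell types on the right. The lists of coagulation factors, acute phase proteins and enzymes run parallel to the members, while the sum of apolipoproteins, most of it *Apoe*, stays between 20828 and 35025 CPM and Kupffer cell markers between 19575 and 37078 CPM.

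Markers of the other cell types that the preparation could hold were set beside the members, and the part of these cells in the members' levels was not tested. The 8 markers of sinusoidal endothelial cells summed to between 1638 and 2198 CPM, lowest in WT mouse 1, with most of the sum from *Stab2* and *Cdh5*. The single markers did not share this low point. *Clec4g*, *Kdr*, *Lyve1*, *Fcgr2b* and *Ptprb* were lowest in WT mouse 2 and highest in Lpcat3 KOMac mice 1 and 2. *Lyve1* was at 14.8 CPM in the former and 65.1 and 64.2 CPM in the latter. *Cdh5* and *Pecam1* were instead highest in WT mouse 2, and *Stab2* was lowest in WT mouse 1. The 8 stellate cell markers summed to 189, 72.5 and 164 CPM in the WT mice and 163, 239 and 138 CPM in the Lpcat3 KOMac mice, and 5 of them had the same top pair of libraries as *Alb*. The 6 cholangiocyte markers summed to between 2.83 and 45.3 CPM, nearly all of it *Spp1*, with *Krt19* at no more than 0.212 CPM. The 8 lymphocyte markers summed to between 3.80 and 7.39 CPM and the 6 neutrophil markers to between 79.0 and 157.6 CPM, the latter nearly all *Csf3r*, with *Ly6g* at 0 in 3 libraries.

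Among 9036 genes outside the list with a mean of at least 10 CPM, 226 had a span of 2 or less, and the median was 11.4. The 10 that kept closest to *Alb* over the 6 libraries were *Pglyrp2* (span 1.17), *Hgfac* (1.20), *Ces1e* (1.26), *C77080* (1.28), *Uox* (1.28), *Ass1* (1.29), *Fxyd1* (1.32), *Slco2b1* (1.32), *Slc27a5* (1.33) and *Slc23a1* (1.34). *Pglyrp2* codes for a secreted peptidoglycan-cleaving enzyme, *Hgfac* for the secreted activator of hepatocyte growth factor, *Uox* for urate oxidase and *Ass1* for an enzyme of the urea cycle. *Uox* was at 525, 56.7 and 48.4 CPM in the WT mice and 138, 411 and 132 CPM in the Lpcat3 KOMac mice. *Pglyrp2* was at 28.9, 2.46 and 2.49 CPM in the WT mice and 6.27, 18.1 and 6.84 CPM in the Lpcat3 KOMac mice. Both had WT mouse 1 and Lpcat3 KOMac mouse 2 apart from the rest, which follows from their choice as genes closest to *Alb*.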

How the data were processed

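RNA of liver F4/80-positive cells from 3 WT and 3 Lpcat3 KOMac mice was poly-A selected and sequenced, 1 library per mouse. The authors deposited the counts of reads per gene without normalization, in a table for each mouse. Per the labels, Trimmomatic 0.36, STAR 2.5.2b and featureCounts of Subread 1.5.2 were used with GRCm38. Whether strand was used, and how reads with several matches were treated, is not given in the sources used here. The quoted IDs and positions are those of the count tables; 49056 of 49315 IDs were found in GENCODE M21, 44823 at the same chromosome, start and end, and 27 of 35 members at the same start and end.

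Genotypes were compared on these counts by edgeR 4.0.16 (R 4.3.3; TMM, default expression filter with a minimum count of 10, robust quasi-likelihood test, genotype as the only term), with Benjamini-Hochberg adjustment over 16134 genes and a threshold of 0.05. P-values rest on the spread between mice. CPM are counts scaled by TMM library sizes. Levels of members are compared with each other per kilobase of exon. No 2 libraries were copies: the chi-square per degree of freedom of each pair was between 41.9 and 554. Alternatives were DESeq2 1.42.0 and its size factors, total counts alone, scaling without the 35 members, other filters, limma-voom (limma 3.58.1), the replicate number as a block, and leaving out mice.

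The members and gene lists were chosen with earlier results of these data known. Named were, in each role, the members highest and lowest per kilobase and widest and narrowest in span, the *Serpina1* paralogs, for fold changes *Alb*, the 5 members of smallest p-value and the 3 of widest span, the 10 genes closest to *Alb* and, in the lists, genes among the 3 of highest mean CPM, which is not corrected for length, and the widest in span; further genes named there were chosen after their values were seen. The symbol of complement C5 was not matched, so 11 of 12 complement genes were read. Sequences are from RefSeq (promoters, GRCm38.p6) and GENCODE M21 transcripts. The study's lipid, PCR and histology data were not analysed here.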

Additional observations from a re-analysis of the deposited data

How the results depend on the processing

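Of 175 values recomputed under another setting, 143 kept their direction and their side of the threshold or stayed close, 29 changed sign and 3 moved. With DESeq2 12 genes were called, none of them among the 8 members to which it gave a p-value. The log2 fold change of *Alb* was -0.0019 with all mice and TMM, and so close to 0 that it turned to 0.15 with total counts alone, 0.0058 with at least 10 counts in every library and 0.72 with limma-voom. Limma-voom, which averages log values, gave *Fetub* 0.32, *Fgg* 0.53, *Serpina1c* 0.49 and *Serpina3k* 0.23, and *Trf* turned to -0.0058 with no low-count filter. Without both WT mouse 1 and Lpcat3 KOMac mouse 2 the values were 1.31 for *Alb*, 1.24 for *Fetub*, 1.40 for *Fgg*, 1.33 for *Serpina1c*, 0.10 for *Serpina1e* and 1.16 for *Serpina3k*.

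Leaving out 1 mouse at a time gave -0.74 to 2.04 for *Alb*, -0.98 to 1.69 for *Fetub*, -0.92 to 1.81 for *Fgg*, -0.99 to 1.61 for *Serpina1c*, -2.33 to -0.33 for *Serpina1e*, -1.47 to 1.43 for *Serpina3k* and -0.47 to 0.83 for *Trf*. The highest of these came without WT mouse 1. It also took the summed level's range over libraries from 11.8-fold to 6.81-fold. The number of members with the top pair of *Alb*, counting *Alb* itself, was 34. It was 5 without WT mouse 1 or without Lpcat3 KOMac mouse 2, where the nearly level Lpcat3 KOMac mice 1 and 3 decide the pair. *Alb* had 3131 and 3138 CPM in these 2 mice. The members with the highest library of *Alb* were 34 to 35 and the median span 1.55 to 1.69.

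With the replicate number as a block the values were 0.84 for *Alb*, 0.61 for *Fetub*, 0.66 for *Fgg*, 0.62 for *Serpina1c* and 0.36 for *Serpina3k*, and 0 genes were called, with 138 at an unadjusted p-value under 0.05. The numbers come from the labels alone, which state no pairing. Deviations of same-numbered libraries from their group means correlated across genes at -0.30, -0.60 and 0.36. The highest correlation, 0.67, was that of WT mouse 1 with Lpcat3 KOMac mouse 2. With 3 libraries centred on each group mean these correlations depend on one another, so they cannot decide whether same-numbered mice were handled together. Standard errors of 0.61 to 1.20 on the log2 scale limit what 3 mice per genotype could show, and counting error was small beside them.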

Other observations

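After the values of *Serpina1e* were seen, 12 transcripts that are known as male-predominant in mouse liver were read in the same way, and these values have no test. Their ratio to *Alb* was lowest in WT mouse 3 for 6 of 12 and in Lpcat3 KOMac mouse 2 for 5, and these were the lowest pair of libraries for 10 of 12. The members, with the same denominator, share this. Among the 34 other than *Alb* the lowest ratio was in WT mouse 3 for 17 and in Lpcat3 KOMac mouse 2 for 16. These were the lowest pair for 26, and *Alb* itself deviated upwards in both, by 0.20 and 0.35 on the log2 scale. The spans of the 12 ran from 3.25 (*Mup20*) to 496 (*Hsd3b5*, on very few counts in its lowest libraries), against a median of 1.69 for the members. *Mup7*, a major urinary protein, had 755, 110 and 3.78 CPM in the WT mice and 108, 7.19 and 53.7 CPM in the Lpcat3 KOMac mice. *Hsd3b5*, a steroid dehydrogenase, had 3042, 311 and 1 counts in the WT mice and 401, 5 and 99 counts in the Lpcat3 KOMac mice. *Slco1a1*, an organic anion transporter, was at 160, 18.1 and 1.86 CPM in the WT mice and 31.2, 9.45 and 14.0 CPM in the Lpcat3 KOMac mice. Lpcat3 KOMac mouse 2 was thus low in level for *Mup7*, *Hsd3b5* and *Slco1a1* while second of 6 for *Alb*, as it was for *Serpina1e*. By level it was, however, second of 6 for *Mup3* (468 CPM), *Mup20* (540 CPM) and *Cyp7b1* (18.4 CPM). In *Mup3* and *Mup20* the ratio to *Alb* was lowest in WT mouse 3 and Lpcat3 KOMac mouse 2. Their spans were smaller, 3.57 and 3.25, against 118 for *Mup7*. Reads of the *Mup* family, whose genes are nearly alike, may be split among its members. The study used mice of both sexes. In the 6 libraries here *Ddx3y*, on the Y chromosome, was between 114 and 155 CPM and *Xist* at no more than 0.0637 CPM. All 6 libraries thus had the pattern of male mice.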
